A study of Mus musculus with 6 samples.

Results

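DNA transposons are mobile elements that move by a cut-and-paste mechanism, in which an encoded transposase binds the terminal inverted repeats of the element and inserts it elsewhere. In mammalian genomes nearly all copies are old remnants, and many subfamilies, such as the MER elements, are short derivatives that rely on a transposase encoded by another element. The hAT superfamily (Charlie, Tip100 and Blackjack elements) and the Tc1/Mariner superfamily (Tigger, Tc2, Mariner and Pogo elements) make up most of them. Their remnants lie in introns, untranslated regions and intergenic DNA, so RNA that matches one is often part of a longer host transcript.

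The members were all features of the DNA transposon class in the 6 libraries, with copies of 1 subfamily summed by removing the copy number that follows "dup". Of 1753368 annotated features with a read, 24183 were DNA transposon copies, and these belonged to 214 subfamilies of 13 families. Between 2814 and 10704 copies had a read in a single library, 301 had a read in all 6 libraries, and 14435 had reads in 1 library alone. Most copies were sparsely covered, with 89.1% of them holding under 6 reads over the 6 libraries.

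The libraries came from an eCLIP experiment, in which ultraviolet light joins RNA to protein before the protein is captured and its RNA sequenced. The protein was mouse Gtsf1 (Asterix), a small zinc-finger partner of the PIWI proteins that silence transposons with piRNAs. It carried a TEV-Strep tag at its C-terminus, was driven by the EF-1alpha promoter of pEF, and was transfected in all 4 groups into P19, a line of mouse embryonal carcinoma cells. Irradiated cells gave 2 pull-down and 2 input libraries, called UV here (labelled crosslinked), and cells that were not irradiated gave 1 of each, called no-UV here (labelled non-crosslinked). Input is lysate kept before capture. No library of cells without the tagged protein was used here, and the protein was made from a strong introduced promoter rather than its own gene. Nothing in the labels says that same-group libraries came from separate cultures, so the p-values measure the spread between these libraries, which may be technical.

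Library totals ranged from 13168593 to 18418166 reads. Of the 10 P19 marker genes listed, 7 reached 1 read per 1000000 reads (RPM) in all 6 libraries, and their summed level lay between 49.0 and 97.2 RPM. The summed levels of the listed fibroblast markers (1.38 to 3.26 RPM), blood markers (0.283 to 3.29 RPM), neuronal markers (3.18 to 9.44 RPM) and muscle markers (0.110 to 0.996 RPM) were lower. Of the 4 neuronal markers 2 reached 1 RPM in all 6 libraries, and of the fibroblast, blood and muscle markers none did. In bulk libraries such as these, fewer cells of a type and less RNA per cell cannot be told apart.

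DNA transposons took a larger share of the reads in both UV pull-downs than in either input, and 1 subfamily, FordPrefect, held most of that share. The class made up 0.184% and 0.212% of all reads in the 2 UV inputs, against 0.687% and 0.388% in the 2 UV pull-downs. The mean was 0.537% ± 0.211 (SD, n = 2) in the pull-downs and 0.198% ± 0.0203 (SD, n = 2) in the inputs, a ratio of 2.71. In the no-UV pair the class took 0.234% of the pull-down and 0.102% of the input, with no replicate check. The exact two-sided permutation test of 2 against 2 libraries gave p = 0.333, the smallest value that it allows, so no share could pass 0.05. The 2 pull-downs differed from each other by more than either input did from the other, and 1 pull-down was 3.47 times and the other 1.96 times the input mean.

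**Figure D1:**
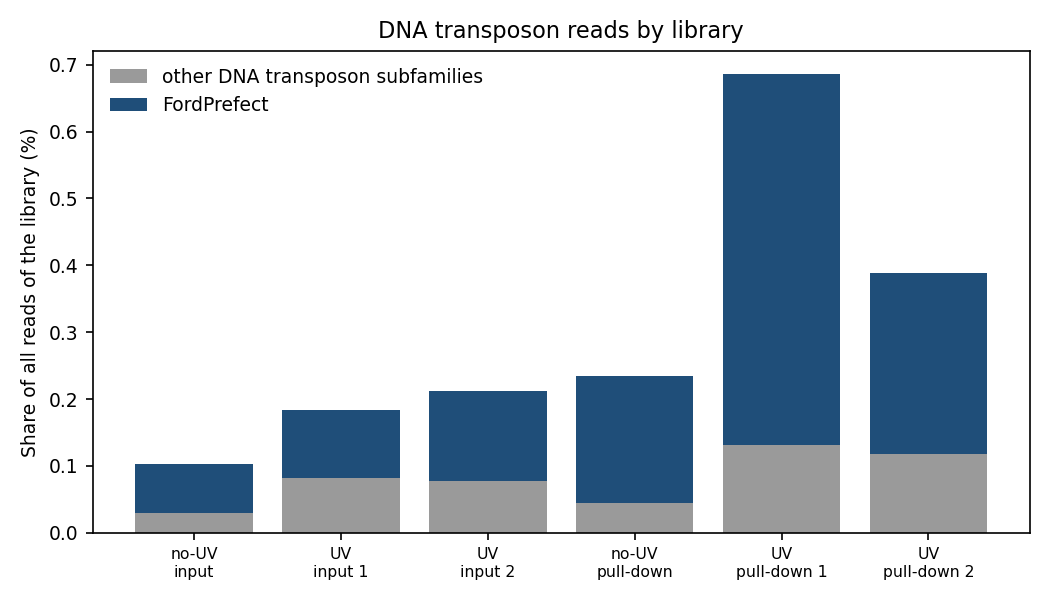
Bars give the share of all reads of each library (%, vertical axis from 0) that fell in FordPrefect (blue) and in all other DNA transposon subfamilies (grey), for the 6 libraries on the horizontal axis. FordPrefect took between 0.0732% and 0.556% of a library, and the other subfamilies together between 0.0291% and 0.131%.

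Without FordPrefect the excess was smaller and steadier between the pull-downs. The remaining subfamilies made up 0.0817% and 0.0773% of the UV inputs and 0.131% and 0.118% of the UV pull-downs. That gave means of 0.0795% ± 0.00311 (SD, n = 2) and 0.124% ± 0.00920 (SD, n = 2), a ratio of 1.56. The no-UV ratio of the same sum was 1.54, from 0.0291% of the input and 0.0449% of the pull-down. Set against the reads of all transposable elements, FordPrefect among them, instead of all reads, the UV ratio without FordPrefect was 1.13. LINE elements, which move through an RNA copy, had a UV ratio of 1.90 and a no-UV ratio of 2.81. SINE elements had 1.32 and 1.37, and LTR elements 0.978 and 0.890. All 3 classes were tested in the same way as the DNA transposons, with exact permutation p-values of 0.333 for LINE and SINE and 0.667 for LTR.

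FordPrefect, an element of the hAT-Tip100 family, rose in the UV pull-downs and was the most abundant DNA transposon in every library. Its level was 1019 and 1351 RPM in the UV inputs, 5559.8 and 2703 RPM in the UV pull-downs, 732 RPM in the no-UV input and 1895 RPM in the no-UV pull-down. Both UV pull-downs lay above both UV inputs, and pull-down 1 held more FordPrefect reads than any other library. The edgeR log2 ratio was 1.89 (SE 0.36, adjusted p = 0.0275). It was 1.29 without UV pull-down 1 and 2.31 without UV pull-down 2, so a single library moved the fold by over 1.5 times. The difference between the UV and the no-UV log2 ratio was 0.41 (adjusted p = 0.733, edgeR on all 6 libraries, with the lone libraries assumed to vary like the others). FordPrefect made up 55.5% and 63.6% of DNA transposon reads in the UV inputs, 81.0% and 69.7% in the UV pull-downs, 71.6% in the no-UV input and 80.9% in the no-UV pull-down.

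Nearly all of these reads fell on 5 of the 47 FordPrefect copies with a read, which held over 99.9% of the subfamily's reads in each library. Copy FordPrefect_dup264 alone held 17129 and 23479 reads in the UV inputs, 82403 and 39804 in the UV pull-downs, 10024 in the no-UV input and 22705 in the no-UV pull-down. It was called higher, with a log2 ratio of 1.84 (SE 0.36, adjusted p = 0.0267, edgeR). By itself it made up 53.4% to 74.5% of all DNA transposon reads of a library. The edgeR ratios of single copies were fitted in a table in which every deposited feature stood for itself. In that fit 6.41% of all 39872 features were called higher and 3.47% lower.

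The smaller copies had larger ratios than FordPrefect_dup264, a difference between copies that was not tested. FordPrefect_dup3 had 76.9 and 80.9 reads in the UV inputs, 1246 and 457 in the UV pull-downs, 19.4 in the no-UV input and 298 in the no-UV pull-down. Its mean RPM was 12.1 times higher in the UV pull-downs and 16.5 times higher in the no-UV pull-down (edgeR log2 ratio 3.67, SE 0.48, adjusted p = 0.00468 for the UV libraries). FordPrefect_dup117 lay close to it in all 6 libraries and had a log2 ratio of 3.57 (SE 0.46, adjusted p = 0.0043). Without UV pull-down 1 the log2 ratios were 2.82 and 2.77, and without UV pull-down 2 they were 4.21 and 4.09. Fractional counts show that reads matching several copies were divided among them, so how reads fell among such copies is uncertain.

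FordPrefect_dup223 and FordPrefect_dup212 formed a second pair, with 263 and 245 reads in UV input 1 and 636 and 595 in UV input 2. In the UV pull-downs FordPrefect_dup223 had 2373 and 1105 reads (log2 ratio 2.21, adjusted p = 0.0428), a call that was lost without UV pull-down 1 (adjusted p = 0.0651). FordPrefect_dup212 had 2515 and 985 reads there, and its log2 ratio of 2.31 did not pass (adjusted p = 0.0504, edgeR). It passed when either UV input or UV pull-down 2 was left out. The log2 ratio ranged from 1.59 to 2.95 for FordPrefect_dup223 and from 1.52 to 3.06 for FordPrefect_dup212, in each case lowest without UV pull-down 1 and highest without UV input 2. Summed without FordPrefect_dup264, the other FordPrefect copies had a log2 ratio of 2.56 (SE 0.50, adjusted p = 0.0306). FordPrefect_a, a related subfamily, had at most 7 reads in a library and was not tested.

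**Figure D2:**
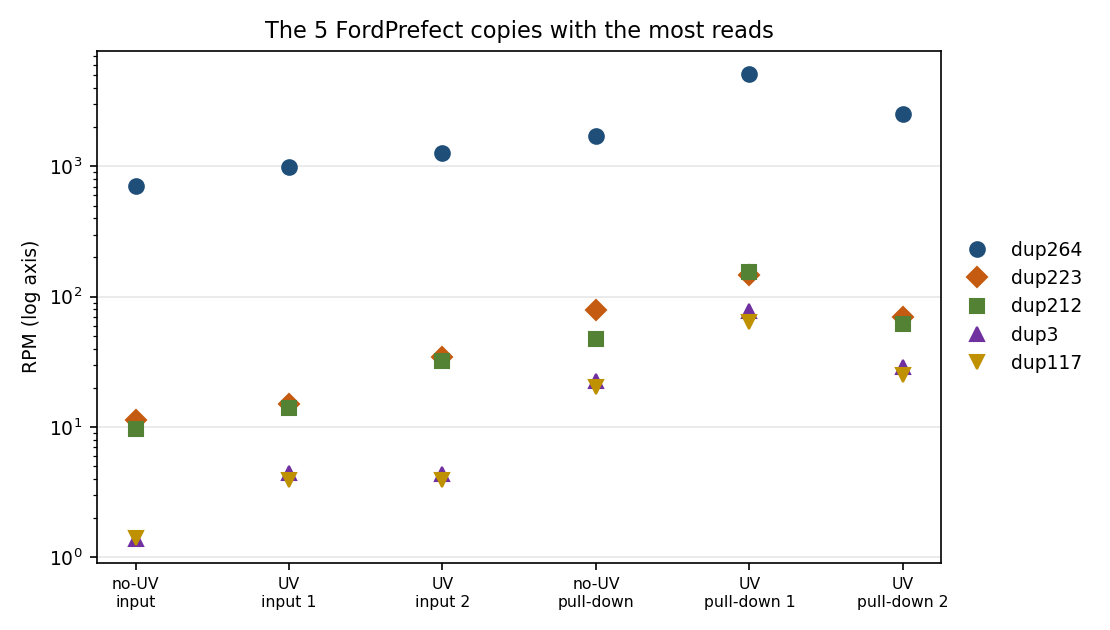
Points give the level (RPM, log axis) of the 5 FordPrefect copies with the most reads in each of the 6 libraries. For each copy both UV pull-downs lie above both UV inputs, and dup3 and dup117 nearly overlap, as do dup212 and dup223 outside the no-UV pull-down.

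Outside the DNA transposons, the features with levels nearest to those of FordPrefect_dup264 over the 6 libraries were annotated as ribosomal RNA. The closest were LSU-rRNA_Hsa-33 and LSU-rRNA_Hsa-195, each at a Euclidean distance of 0.579 on log2(RPM + 1). This distance takes in the level itself, so only features of similar abundance could lie near. LSU-rRNA_Hsa-33 stood at 923 and 1172 RPM in the UV inputs, 4136 and 2625 RPM in the UV pull-downs, 533 RPM in the no-UV input and 2006 RPM in the no-UV pull-down. It was thus highest in the same library as FordPrefect. The next nearest, LSU-rRNA_Hsa-403, lay at a distance of 1.39. Whether FordPrefect_dup264 shares sequence with ribosomal RNA was not tested.

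At the level of families, 4 of the 12 tested families rose in the UV pull-downs and none fell. In the table with every transposable element summed to its family, 4.56% of all features were called higher and 2.43% lower. The hAT-Tip100 family, which contains FordPrefect, had a log2 ratio of 1.89 (SE 0.35, adjusted p = 0.0274, edgeR). FordPrefect held 17792 of the 18870.5 reads of this family in UV input 1 and 89607 of 93422.5 in UV pull-down 1. The hAT family, which holds elements not placed in a named branch, had 4.58 and 5.46 RPM in the UV inputs and 9.49 and 8.94 RPM in the UV pull-downs (log2 ratio 0.97, adjusted p = 0.0172). TcMar-Mariner elements had 8.42 and 7.38 RPM against 17.0 and 12.8 RPM (log2 ratio 1.00, adjusted p = 0.0280). The family annotated only as DNA had 5.61 and 4.40 RPM against 7.76 and 8.85 RPM (log2 ratio 0.82, adjusted p = 0.0456).

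Of these 4 calls, that of hAT-Tip100 held whichever UV library was left out, with a log2 ratio of 1.32 without UV pull-down 1 and 2.30 without UV pull-down 2. Each of the other 3 calls was lost in at least 1 such fit. The hAT call was lost without UV input 1, the TcMar-Mariner call without either UV input, and the call of the family annotated only as DNA without UV input 2 or UV pull-down 2. With UV input 1 or input 2 left out, 2 families were called. With the top copy of each subfamily removed, 1 family, hAT-Tip100, was called (log2 ratio 2.35, adjusted p = 0.0257, edgeR). That sum still held the other FordPrefect copies, such as FordPrefect_dup223 with 2373 reads in UV pull-down 1. With or without top copies, the family call is thus not separate from the FordPrefect result.

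The biggest families by copy number did not pass. The hAT-Charlie family, with 16473 of the 24183 copies, had 485 and 459 RPM in the UV inputs and 659 and 610 RPM in the UV pull-downs (log2 ratio 0.52, adjusted p = 0.149). TcMar-Tigger, with 5298 copies, had 219 and 212 RPM against 332 and 322 RPM (log2 ratio 0.69, adjusted p = 0.0659). Neither overlapped between the groups. Of the reads outside FordPrefect, hAT-Charlie took 59.4% and 59.5% in the UV inputs and 50.5% and 51.8% in the UV pull-downs. The rest of hAT-Tip100 took 7.56% and 7.21% in the UV inputs and 18.1% and 15.4% in the UV pull-downs, and most of that came from 1 copy, MER97a_dup33. Without that copy hAT-Tip100 took 2.48% and 2.31% in the UV inputs against 3.349% and 3.902%, and hAT-Charlie 62.7% and 62.6% against 59.6% and 58.9%. The remaining tested families, hAT-Blackjack, TcMar, PiggyBac, MULE-MuDR, TcMar-Tc2 and MuDR, had log2 ratios between 0.07 and 0.61 and were not called. TcMar-Pogo had at most 1 read in a library and was not tested.

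Of the 214 subfamilies, 110 reached a mean of 1 RPM over the 4 UV libraries and were tested, and 104 were not. The UV pull-downs were higher for 34 of the 110 and lower for none (edgeR, adjusted p under 0.05). Without adjustment 59 had p under 0.05, beside 8500 of all 39069 features. In the same fit 5.33% of all 39069 features were called higher and 2.71% lower. The median log2 ratio was 0.54 over the 110 subfamilies and -0.21 over all features, and with TMM scaling these medians were 0.74 and -0.0035. Of the 110, 13 had a UV input mean under 1 RPM and so passed the minimum only through their pull-downs, and 8 of these are among the 34. In 73 of the 110 both UV pull-downs exceeded both UV inputs, and in 5 both were below. Among all features 10.2% were above and 57.8% below in this way. The call held for 24 of the 34 whichever UV library was left out.

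Most of the tested subfamilies also had positive ratios without crosslinking. A log2 ratio above 0 in the no-UV pair was found for 72 of the 110, and for 30 of the 34 called higher, beside 17.1% of all 39069 features. The difference between the UV and the no-UV ratio was called for 0 of the 110, with 17 at an unadjusted p under 0.05. Among all 39069 features 0% were called in that test, and 5511 had an unadjusted p under 0.05, so it separated nothing in this design. The median difference was 0.0017 over the DNA transposon subfamilies and 0.57 over all features. Set against the no-UV libraries directly, 83 of the 110 subfamilies were higher in the UV inputs, beside 39.6% of all features. In the pull-downs 94 were higher with crosslinking, beside 68.3% of all features. The median log2 ratio in the pull-downs was nearly the same for both, at 1.47 over the 110 subfamilies and 1.46 over all features. In the inputs these medians were 1.40 and 0.84. These 3 contrasts come from an edgeR fit of all 6 libraries in which the lone no-UV libraries were assumed to vary like the others.

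**Figure D3:**
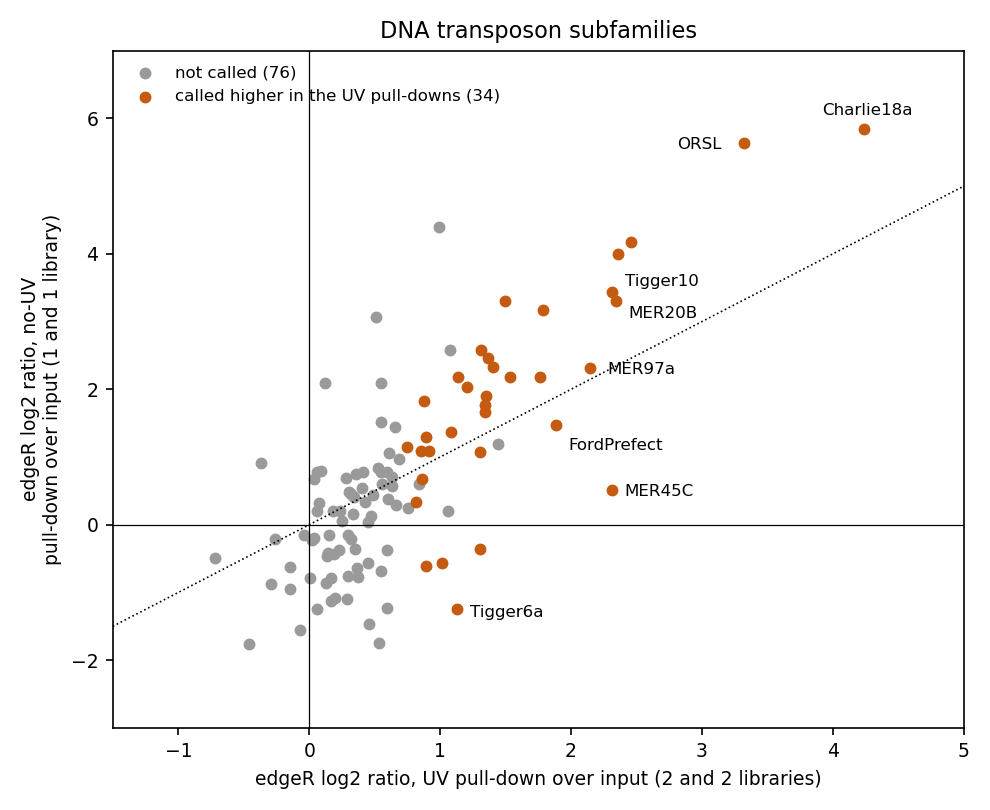
Each point is 1 of the 110 tested subfamilies, with the edgeR log2 ratio of UV pull-down over input on the horizontal axis and that of the no-UV pair on the vertical axis. The dotted line marks equal ratios, orange marks the 34 subfamilies called higher, and 30 of these lie above 0 on the vertical axis.

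Among the 12 subfamilies with the highest levels, 5 rose, which were FordPrefect, MER97a, MER2, MER5A and Tigger1. MER2, a short Tigger-related element, had 52.6 and 57.1 RPM in the UV inputs, 98.3 and 93.3 RPM in the UV pull-downs, 22.8 RPM in the no-UV input and 52.1 RPM in the no-UV pull-down. The groups did not overlap (log2 ratio 0.89, SE 0.16, adjusted p = 0.0221, edgeR), though the call was lost without UV input 1 (adjusted p = 0.150) or input 2 (adjusted p = 0.0534). Tigger1, a longer Tigger element, had 12.1 and 10.3 RPM against 26.0 and 27.5 RPM, and 4.88 against 17.0 RPM in the no-UV pair (log2 ratio 1.35, SE 0.16, adjusted p = 0.00408). MER5A, a short Charlie-related element, had 16.8 and 16.3 RPM against 24.8 and 29.8 RPM (log2 ratio 0.81, SE 0.17, adjusted p = 0.0362). That call was lost without either UV input and without UV pull-down 2.

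The other highly covered subfamilies had smaller differences that did not pass. URR1A and URR1B, hAT elements of rodent genomes, had log2 ratios of 0.42 (adjusted p = 0.195) and 0.41 (adjusted p = 0.217). URR1A stood at 89.2 and 83.0 RPM in the UV inputs and 114 and 102 RPM in the UV pull-downs. MER20 (log2 ratio 0.63, adjusted p = 0.0582), Tigger7 (0.61, adjusted p = 0.0684), Charlie1a (0.49, adjusted p = 0.146) and RCHARR1 (0.34, adjusted p = 0.254) also had both pull-downs above both inputs. MER58A was the only one of the 12 whose groups overlapped (0.15, adjusted p = 0.61).

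MER97a, another hAT-Tip100 subfamily, had almost no reads unless the cells had been crosslinked. It had 42.9 and 39.1 RPM in the UV inputs and 200.2 and 141 RPM in the UV pull-downs, but 0.141 and 0.683 RPM in the no-UV input and pull-down. The log2 ratio of pull-down over input was 2.15 (SE 0.22, adjusted p = 0.00227, edgeR). One copy, MER97a_dup33, held 99.2% of its reads in the UV inputs and 99.8% in the UV pull-downs. That copy had 743 and 714.5 reads in the inputs, 3218 and 2230.5 in the pull-downs, 1 read in the no-UV input and 8 in the no-UV pull-down. Its RPM was 575 times higher in the UV than in the no-UV input (95% exact interval 103 to 22727.5, counting error only). In the pull-downs it was 281 times higher (142 to 651). Without FordPrefect and this copy, the class ratio was 1.42 in the UV and 1.54 in the no-UV libraries.

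The subfamilies with the largest ratios were mostly low in the inputs, and in most of them the UV pull-down reads lay mainly on 1 copy. Charlie18a had 0.973 and 0.896 RPM in the UV inputs, 17.7 and 15.2 RPM in the UV pull-downs, 0.283 RPM in the no-UV input and 15.5 RPM in the no-UV pull-down. Its log2 ratio was 4.24 (SE 0.19, adjusted p = 0.000609, edgeR), and 92.8% of its reads in the UV pull-downs came from the copy Charlie18a_dup163. With under 1 RPM in both UV inputs, it passed the minimum only through its pull-downs. MER20B had 3.49 and 3.45 RPM against 16.5 and 16.7 RPM, with 76.0% of the pull-down reads on 1 copy (log2 ratio 2.34, adjusted p = 0.000644). Tigger10 had 2.12 and 1.74 RPM against 8.66 and 9.35 RPM, with 68.2% on 1 copy (log2 ratio 2.32, adjusted p = 0.000821). In the no-UV pull-down MER20B stood at 13.7 RPM and Tigger10 at 7.90 RPM, against 1.48 and 0.777 RPM in the no-UV input.

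ORSL (log2 ratio 3.32), Tigger11a (2.46), Kanga11a (2.36) and MER45C (2.32) were also called higher, with adjusted p between 0.00131 and 0.0162. All 4 had under 1 RPM in each UV input, so they passed the minimum through their pull-downs. The log2 ratio of ORSL was 5.08 without UV input 1 and 2.53 without UV input 2. One copy held 81.5% to 85.7% of the UV pull-down reads of ORSL, Tigger11a and Kanga11a. In MER45C the top copy held 38.2%.

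When the copy with the most reads was left out of each subfamily, 95 subfamilies were still tested and 11 were called higher, beside 5.04% of all features in that table. Of the 34 called with all copies, 10 were called again, 18 were tested and not called, and 6 fell under the minimum. The copy left out was chosen by its reads over the 6 libraries, pull-downs included, so its removal can lower a ratio through the choice itself. The median log2 ratio over the 95 was 0.34. Charlie18a went from 4.24 to 0.50 (adjusted p = 0.395) and MER20B from 2.34 to 0.30 (adjusted p = 0.374). MER44C changed its sign, from 1.54 (adjusted p = 0.00224) to -0.61 (adjusted p = 0.151), after the loss of a copy with 77.5% of its pull-down reads.

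The 10 subfamilies called both with and without their top copy were FordPrefect, MER2, MER5A, Tigger1, MER47B, Charlie12, MER115, MER45B, Zaphod and MER53. Without the top copy MER45B had a log2 ratio of 1.59 (adjusted p = 0.00509), MER115 had 1.33 (adjusted p = 0.00663) and Zaphod had 1.05 (adjusted p = 0.0135). MER115, MER45B, Zaphod and FordPrefect all belong to hAT-Tip100. Tigger7, not called with all copies, was called without its top copy (0.69, adjusted p = 0.0483), and also with all copies under TMM scaling (0.81, adjusted p = 0.0316). In the no-UV pair MER115 and Charlie12 had log2 ratios below 0, at -0.56 and -0.62.

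**Figure D4:**
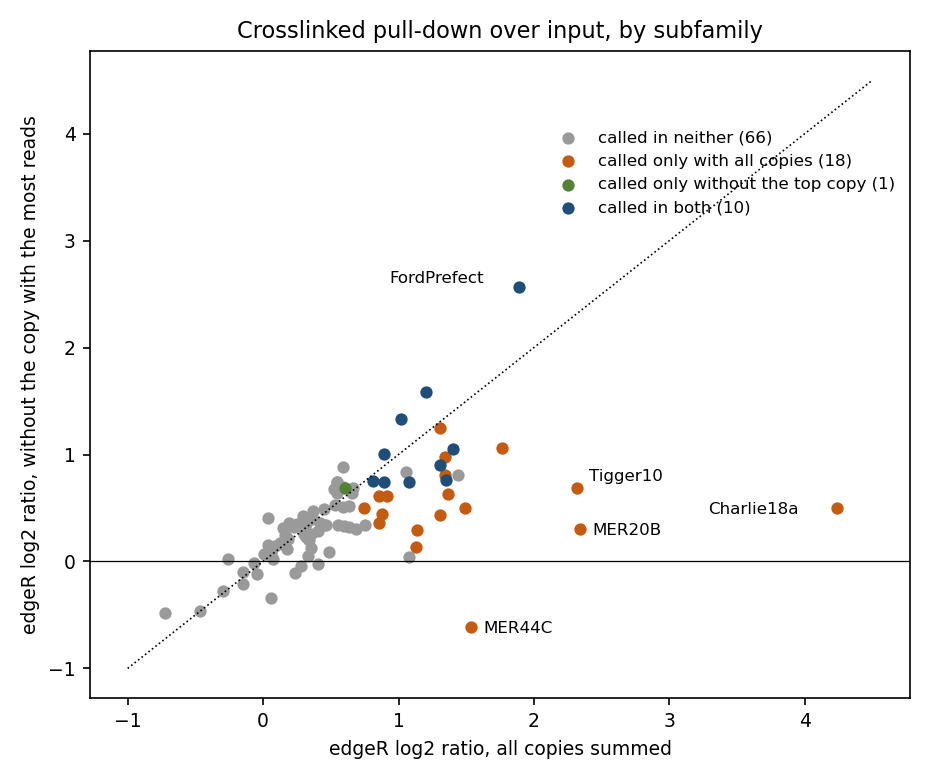
Each point is 1 of the 95 subfamilies tested both ways, with the edgeR log2 ratio of UV pull-down over input from all copies on the horizontal axis and without its copy with the most reads on the vertical axis. The dotted line marks equal values, and the 18 orange points were called only with all copies, among them Charlie18a, MER20B and MER44C.

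Single copies were mostly too sparse to test, with 46 of 24183 copies (0.190%) reaching a mean of 1 RPM. Of these, 39 were called higher and 1 lower (edgeR), beside 6.41% and 3.47% of all 39872 features, but 34 of the 39 averaged under 1 RPM in the UV inputs and so were tested only through their pull-downs. Of the 39, 32 had at most 3 reads in the 3 inputs together. The copy Charlie18a_dup163 had 1 read in each UV input and none in the no-UV input, against 263 and 224 reads in the UV pull-downs and 199 in the no-UV pull-down. Charlie1a_dup2523 had no read in any input, and 185, 175 and 129 reads in the same 3 pull-downs. With 3 reads per input library as the floor, its RPM was at least 67.3-fold higher in the UV and at least 46.2-fold higher in the no-UV pull-down. MER20B_dup482 had 2 reads in UV input 2 and none in the other inputs, against 194, 209 and 169 reads in the pull-downs. These copies thus had similar read numbers with and without crosslinking.

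Over the whole class, 43 copies had no read in the 3 inputs and at least 10 reads in each of the 3 pull-downs, a set chosen after the values were seen. They fell in 26 subfamilies, with 22 copies in hAT-Charlie and 17 in TcMar-Tigger. Their summed level was 117 RPM in the no-UV pull-down and 119 and 126 RPM in the UV pull-downs. A copy's highest RPM among the 3 pull-downs was 1.25 times its lowest in the median, and 2.58 times at most. This closeness is partly set by the rule of 10 reads in each pull-down. The rule leaves out copies such as MER20_dup3837, with 1 read in the no-UV pull-down. The 43 copies held 26.0% of the class's reads outside FordPrefect in the no-UV pull-down, and 9.13% and 10.7% in the UV pull-downs.

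**Figure D5:**
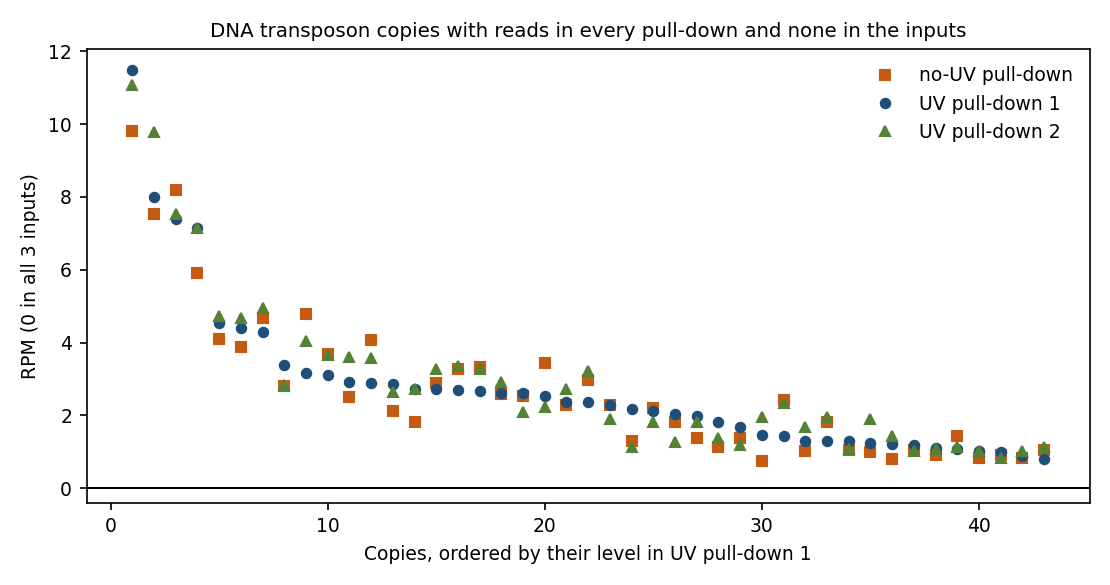
Points give the level (RPM) of the 43 copies with at least 10 reads in each pull-down and none in the 3 inputs, ordered by UV pull-down 1. The highest of the 3 pull-downs was over 1.5 times the lowest for 11 of the copies, and the sums are 117, 119 and 126 RPM.

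A few copies, also picked after their values were seen, had reads mainly in the UV libraries. Tigger6a_dup79 had 11 and 13.5 reads in the UV inputs and 101 and 54.2 in the UV pull-downs, but 1 read in the no-UV input and 2 in the no-UV pull-down. Its log2 ratio was 2.87 (SE 0.38, adjusted p = 0.00476, edgeR), and with under 1 RPM in both UV inputs it was tested only through its pull-downs. MER20_dup3837 had no read in the inputs, 22 and 74 reads in the UV pull-downs and 1 read in the no-UV pull-down. The only copy called lower was RCHARR1_dup5162, with 61 and 53 reads in the UV inputs, 10 and 17 in the UV pull-downs and none in either no-UV library (log2 ratio -1.81, SE 0.26, adjusted p = 0.00719). With a mean of 0.847 RPM in the UV pull-downs, RCHARR1_dup5162 was tested only through its inputs.

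The authors' deposited table holds 1 enrichment value per feature, by a formula not given in the sources used here. The authors' deposited table lists 92 DNA transposon copies among 216085 features. In the authors' deposited table their median was 1.83 against 1.37 for all features, and 86 of the 92 were above 1, beside 74.6% of all features. Many of the 92 were URR1A copies with tied values in the authors' deposited table, and this median was itself such a tied value. The 92 may thus not all be separate measurements, and the listed copy with the fewest reads had 1.84 over the 6 libraries. The highest values for DNA transposons in the authors' deposited table were 124 for Tigger10_dup210 and 72.6 for MMAR1_dup221. The authors' deposited table gave 10.6 for FordPrefect_dup212, 9.41 for FordPrefect_dup117, 8.85 for FordPrefect_dup3, 7.63 for FordPrefect_dup223 and 5.61 for FordPrefect_dup264. Each DNA transposon copy in it had reads in at least 4 of the 6 libraries, so the 43 copies seen in the 3 pull-downs alone were not among them. It also left out 230 of the 301 copies with a read in all 6 libraries, MER97a_dup33 among them.

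Host genes that arose from DNA transposases, such as Pogz, Cenpb, Jrk and the Thap and Zbed genes, were set beside the elements. Of the 26 listed genes, 1 had a pre-mRNA feature above the minimum, which was Pogz, a Pogo-derived chromatin protein. Its pre-mRNA feature stood at 2.18 and 2.50 RPM in the UV inputs and 1.18 and 1.90 RPM in the UV pull-downs (log2 ratio -0.52, SE 0.25, adjusted p = 0.284, edgeR). Summed over exons, a measure chosen after the values were seen, 14 of the genes reached 1 RPM, and the median ratio of UV pull-down over input was 0.948.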

How the data were processed

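For each of the 6 eCLIP libraries the authors deposited an expected count per annotated feature, in which reads matching several features were split into fractions. The authors also deposited RPM values, which are those counts per 1000000 of all reads, unannotated reads included. A whole-series table that the authors deposited holds 1 enrichment ratio per feature. The submitters' processing notes name bcl2fastq 2.19, STAR 2.5.2b, bedtools 2.29.0 and mm10, and removal of PCR duplicates is not given in the sources used here. No coordinates or sequences were used here.

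Copies were summed to subfamilies (all transposable element classes), to families, or kept single. Counts were rounded to whole numbers. The 2 UV pull-downs were compared with the 2 UV inputs by edgeR 4.0.16 (R 4.3.3, quasi-likelihood, annotated reads as library sizes) over features that averaged 1 RPM or more. Calls needed a Benjamini-Hochberg adjusted p under 0.05 over the whole table. Fold changes on log2(RPM + 1) use a pseudocount of 1, and intervals and the floor of 3 reads cover counting error only.

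Named members are all families, the 12 subfamilies with the highest level, the 8 called subfamilies with the largest log2 ratio, the 10 copies with the highest level and each copy called lower. Other members were named after their values were seen. The members, lists and naming rule were chosen with earlier results of these data known. Alternatives were TMM, DESeq2 1.42.0, limma 3.58.1, other filters and library sizes, a replicate block, all libraries in 1 fit, identical copies counted once, and each UV library or top copy left out. The contrasts with the no-UV libraries, and sums without MER97a_dup33, were added after seeing the data.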

Additional observations from a re-analysis of the deposited data

How the results depend on the processing

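With 2 or 1 libraries per group, these results rest on few samples, and most DNA transposon copies held too few reads for a test. The 34 subfamily calls became 29 to 34 when 1 UV library was left out; without UV input 2, 28 were higher and 1 (Kanga1) lower. They became 11 without each top copy and 0 with no filter on low values, where 72 had an unadjusted p under 0.05. With the filter DESeq2 called 26 and limma 32. TMM scaling raised the count to 45. The unadjusted p was then under 0.05 for 78 subfamilies, beside 6246 of all 39069 features. For most other settings here no share over all features is given, so those counts do not set the class against other features. The 4 family calls became 2 to 4 with 1 library left out, 2 with a minimum of 0.2 RPM, 1 without top copies and 0 with no filter (6 at an unadjusted p under 0.05; DESeq2 and limma called 3 each with the filter, and 5 were called with TMM). The 40 single-copy calls became 120 with a minimum of 0.2 RPM and 0 with no filter (1016 at an unadjusted p under 0.05; DESeq2 and limma called 41 each with the filter), and 39 to 41 with 1 library left out. With no filter many more features were tested; the causes of the other changes were not tested. The FordPrefect log2 ratio ranged from 1.29 to 2.31 with 1 library left out, and was not called with no filter (1.89, adjusted p = 0.884, edgeR). With the replicate number as a block it was 1.82 (adjusted p = 0.0787), and 2 families and 33 subfamilies were called. The block also ended the calls of the hAT-Tip100 family (adjusted p = 0.0774), FordPrefect_dup264 (0.0741), FordPrefect_dup223 (0.116), MER5A and the family annotated only as DNA, while the hAT (0.0314) and TcMar-Mariner (0.0280) calls held; same-numbered inputs and pull-downs shared little (r = 0.117 over 39069 features, which are not independent), and the labels do not pair them. The MuDR log2 ratio, not called, turned to -0.0248 with unannotated reads in the library sizes and to -0.0311 with limma. The class ratio without FordPrefect moved from 1.56 to 1.13 with transposable element reads, those of FordPrefect among them, as the total. The ratio of FordPrefect's share of DNA transposon reads moved from 1.26 to 2.94 without FordPrefect_dup264. With 1 library left out, the class ratio was 1.96 to 3.47, that without FordPrefect 1.48 to 1.64 and that of FordPrefect's share 1.17 to 1.36. Over the 42 named families, subfamilies and copies, 488 recalculated values kept direction and call, 57 lost the call, 13 gained it and 2 turned sign.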

Other observations

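The pattern of reads in every pull-down and none in the inputs was counted in the other annotated classes too, after the values were seen. Among features with at least 10 reads in each of the 3 pull-downs, no read in the 3 inputs was found for 43 of 64 DNA transposon copies (67.2%), 373 of 638 LINE copies (58.5%), 164 of 318 SINE copies (51.6%) and 181 of 661 LTR copies (27.4%). The same held for 39 of 6127 exons (0.637%), 60 of 9847 introns (0.609%) and 0 of 174 tRNA features. In the DNA transposons the median level of such a copy was 2.28 RPM in the no-UV pull-down and 2.36 and 2.24 RPM in the UV pull-downs. The difference between classes was not tested.

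MMAR1_dup221, a Mariner copy, had 1 and 4 reads in the UV inputs and 1 in the no-UV input, against 100 and 52 reads in the UV pull-downs and 88 in the no-UV pull-down. The copy Tigger1_dup158 had no input read and 129, 155 and 99 reads in the same 3 pull-downs.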
